A study of Mus musculus with 8 samples.

Results

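Lysosomal genes were followed in lung RNA of male Fra-2 transgenic mice. The members were all named genes whose symbol starts with Atp6v, which encode subunits of the proton pump, and 31 listed genes of lysosomal hydrolases, their activators, lysosomal membrane proteins and the regulator Tfeb. A probe was present for 43 of these genes among 8741 named genes, namely 19 pump genes and 24 of the 31 others, and all 43 entered the tests. Gusb lies in a stretch of the annotation that was left unnamed, and Idua, Arsb, Ids, Ppt1, Laptm4a and Npc1, as well as the pump genes Atp6v0c, Atp6v0d2 and Atp6v1b1, had no named probe and are not analysed here.

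The transgenic group was 4 male mice of 14 weeks, transgenic for Fra-2 (the product of Fosl2, an AP-1 transcription factor), on a C57BL6 x CBA background. The wild-type group was 1 pool of lung RNA from 4 males of the same age and background. Each transgenic mouse was hybridised to the pool on 2 arrays with the dyes exchanged, giving 8 arrays of 2 colours, and its 2 arrays were averaged. The promoter that drives the transgene is not given in the sources used here, and mice of 6 and 10 weeks, which the study also covered, are not analysed here.

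Values are log2 ratios of transgenic lung over the pool, so that a value of 1 is a doubling. The direction is likely only, from the order of the channels in the labels. With the ratio inverted, every rise below would be a fall and every fall a rise. The pool is 1 control sample, so its own spread is in no test, and what is peculiar to the pool and what changed in transgenic lung cannot be told apart. Ratios carry no level, so neither the tissue nor the abundance of a member could be checked, and genes can be compared only by how far their ratios lie from 0. The arrays gave 20585 to 20729 usable ratios each, and the 2 arrays of a mouse correlated at 0.587 to 0.685 over probes in mice 1 to 3 and at 0.389 in mouse 4, whose Cy3 array had the lowest median (-0.09). In whole lung, more cells of a type and more RNA per cell cannot be told apart.

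Lysosomes are acidic compartments in which hydrolases break down proteins, lipids, glycans and nucleic acids. Their acidity comes from the vacuolar proton pump, in which a cytosolic V1 part hydrolyses ATP and a membrane part, V0, carries the protons. Macrophages, which are abundant in lung, are rich in lysosomes, and type 2 alveolar cells store surfactant in lysosome-related organelles. Many lysosomal genes carry E-box-like sites that Tfeb and related factors read.

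Transcripts of the lysosome did not move as a block. The largest rises were in the acid phosphatase gene Acp5 (2.63-fold), the saposin precursor gene Psap (2.25-fold) and the membrane protein gene Laptm5 (1.95-fold), followed by the V1 pump gene Atp6v1b2 (1.77-fold). The acid ceramidase gene Asah1 fell by 0.63 on the log2 scale, and the genes of both major lysosomal membrane glycoproteins, Lamp1 and Lamp2, fell by 0.36 and 0.35. By limma with Benjamini-Hochberg adjustment over all named genes, 14 of the 43 members changed (adjusted p under 0.05), 11 higher and 3 lower. That share, 32.6%, lay beside 31.9% of the 8692 genes tested. By direction, 25.6% of the members were higher, beside 13.5% of all genes, and 6.98% were lower, beside 18.4% of all genes. The median over members was 0.09 on the log2 scale, beside -0.01 over all genes. Of the 43 members, 10 had the same sign on all 8 arrays (23.3%, beside 27.8% of all genes).

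**Figure D1:**
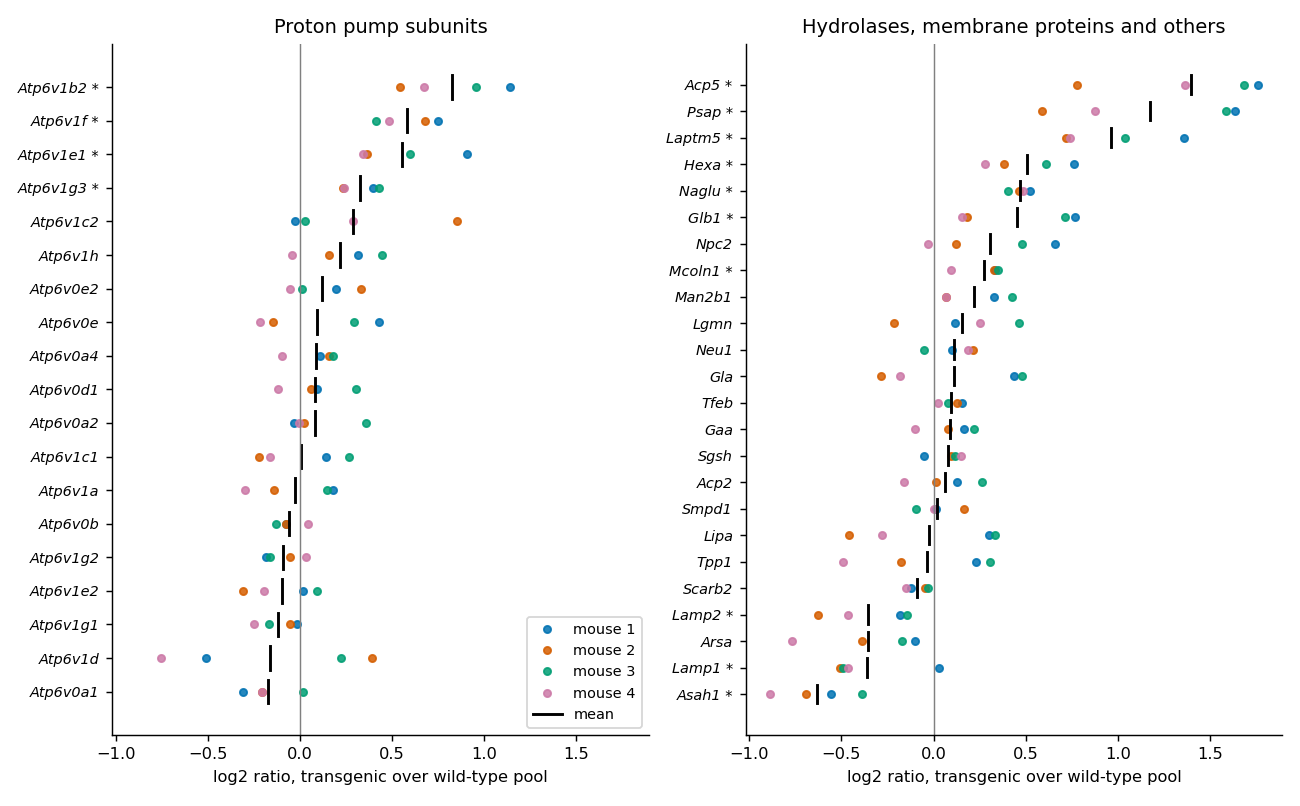
Log2 ratio of transgenic lung over the wild-type pool (horizontal axis) for the 19 pump genes (left) and the 24 other members (right), with 1 point per transgenic mouse (mean of its 2 arrays) and a black line at the mean of the 4 mice. An asterisk marks genes with adjusted p under 0.05. Only V1 subunits carry an asterisk among the pump genes, while the other members spread from -0.63 for Asah1 to 1.4 for Acp5.

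The promoters of 4 members that changed are shown because they hold the letters of the E-box read by Tfeb or of the AP-1 site read by Fra-2 dimers. They are RefSeq sequences of build GRCm38.p6, 250 bases before to 50 after the start of the gene, 5′ to 3′, with matches in capitals. Psap has 2 promoters in the RefSeq table, and the promoter with a match was picked for printing (chr10:60277378-60277677, plus strand). It has TGAGTCA, an AP-1 site, 18 bases before the start, and the other Psap promoter has no match. The Glb1 promoter (chr9:114400828-114401127, plus strand) has TGAGTCA at 53 and CACGTG at 48 bases before the start, which overlap. The Naglu promoter (chr11:101069844-101070143, plus strand) has CACGTG at 73 bases before the start, and the Lamp1 promoter (chr8:13158911-13159210, plus strand) has it at 61, 45, 28 and 15.
Psap: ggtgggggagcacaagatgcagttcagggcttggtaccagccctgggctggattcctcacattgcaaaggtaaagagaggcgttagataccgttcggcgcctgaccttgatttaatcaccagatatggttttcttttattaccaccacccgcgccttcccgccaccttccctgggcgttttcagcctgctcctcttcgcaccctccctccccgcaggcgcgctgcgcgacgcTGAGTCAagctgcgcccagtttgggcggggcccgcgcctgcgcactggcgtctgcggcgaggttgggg
Glb1: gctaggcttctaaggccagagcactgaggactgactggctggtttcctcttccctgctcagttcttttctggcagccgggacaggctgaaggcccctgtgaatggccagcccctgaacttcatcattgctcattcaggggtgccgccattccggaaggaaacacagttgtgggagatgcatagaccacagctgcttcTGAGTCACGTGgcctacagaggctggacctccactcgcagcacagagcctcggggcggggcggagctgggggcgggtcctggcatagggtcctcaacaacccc
Naglu: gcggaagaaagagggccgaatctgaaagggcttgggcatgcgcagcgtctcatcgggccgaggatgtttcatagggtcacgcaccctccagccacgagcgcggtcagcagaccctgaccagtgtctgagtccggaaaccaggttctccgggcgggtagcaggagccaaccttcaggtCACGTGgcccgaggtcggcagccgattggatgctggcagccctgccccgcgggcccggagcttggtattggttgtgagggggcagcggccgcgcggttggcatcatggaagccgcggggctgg
Lamp1: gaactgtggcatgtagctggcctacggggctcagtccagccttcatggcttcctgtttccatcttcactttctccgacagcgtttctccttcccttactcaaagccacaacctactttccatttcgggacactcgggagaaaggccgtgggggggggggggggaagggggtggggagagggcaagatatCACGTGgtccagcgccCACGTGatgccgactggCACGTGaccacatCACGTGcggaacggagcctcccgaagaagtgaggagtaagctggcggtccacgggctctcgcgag

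A promoter was found in the RefSeq table for 43 of the 50 genes that make up the 19 measured pump genes and the 31 listed ones. CACGTG, which reads the same on both strands, was present for 13 of the 43 (30.2%), beside 8.09% of 27025 genes in the table. The longer form GTCACGTG, on either strand and always overlapping a CACGTG, was present for 10 (23.3%), beside 2.55% of all genes. TGACTCA, on either strand, was present for 4 (9.3%), beside 5.95% of all genes. Of these 4, Psap and Glb1 rose, Neu1 (0.11, adjusted p = 0.292 by limma) did not pass, and Laptm4a had no named probe. Of the 13 genes with CACGTG, Glb1, Mcoln1 and Naglu rose, Lamp1 fell, and Arsa, Atp6v0b, Atp6v0d1, Atp6v0e, Atp6v1a, Gaa, Gla, Lgmn and Sgsh did not pass the test. Their median ratio was 0.09, the same as over all 43 measured members to this precision. The 3 members with the largest rises, Acp5, Psap and Laptm5, had no CACGTG in these windows. A match is a description of letters, not of binding.

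The Atp6v genes that changed were all of the V1 part, and the counts that follow cover Atp6v symbols only. The V0 gene Tcirg1, outside that rule, rose by 0.56 (adjusted p = 0.00241 by limma), and the V0 genes Atp6v0c and Atp6v0d2 had no named probe. Of 12 measured V1 genes 4 rose and 0 fell (33.3% called, near the 31.9% of all genes), and of 7 V0 genes 0 passed the test, with 0 at an unadjusted p under 0.05 as well. Over the 19 pump genes 21.1% were higher, beside 13.5% of all genes, and 0 lower by limma, beside 18.4% of all genes, again with 0 lower at an unadjusted p under 0.05. The pump median was 0.08 on the log2 scale, 0.08 over V0 and 0.11 over V1 genes. That V1 and V0 genes differed was not tested.

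Atp6v1b2 encodes the B subunit widely used in the ring that binds ATP. With the transgenic RNA in Cy5 its log2 ratios in mice 1 to 4 were 1.26, 0.72, 1.04 and 0.96, and with it in Cy3 they were 1.02, 0.36, 0.87 and 0.38. All 8 arrays lay above 0, and each mouse was lower on its Cy3 array. The mean was 0.83 ± 0.27 (SD, n = 4 mice, adjusted p = 0.00294 by limma).

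Atp6v1f encodes a subunit of the central stalk that turns with the rotor. Its ratios were 0.75, 0.64, 0.38 and 0.36 on the Cy5 arrays of mice 1 to 4, and 0.75, 0.71, 0.45 and 0.61 on the Cy3 arrays. All lay above 0, and the mean was 0.58 ± 0.16 (1.5-fold, adjusted p = 0.00376 by limma).

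Atp6v1e1 encodes a subunit of the outer stalks that hold the ring in place. Its ratios, the mean of 2 probes, were 0.81, 0.51, 0.82 and 0.56 with the transgenic RNA in Cy5, and 1.0, 0.21, 0.38 and 0.12 with it in Cy3. Both probes rose on their own, by 0.47 and 0.64, with probe-level adjusted p = 0.0245 and 0.00813 by limma. The gene mean was 0.55 ± 0.26 (adjusted p = 0.00985), and the call was lost on the Cy3 arrays alone (0.43, adjusted p = 0.084).

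Atp6v1g3 encodes an outer stalk subunit known mainly from kidney. Its ratios were 0.47, 0.32, 0.34 and 0.45 on the Cy5 arrays, and 0.32, 0.14, 0.52 and 0.02 on the Cy3 arrays. All 8 were above 0, that of mouse 4 in Cy3 barely so, and the mean was 0.32 ± 0.10 (adjusted p = 0.0172 by limma). The call was lost without mouse 1 (adjusted p = 0.0795), without mouse 3 (0.0691) or on the Cy3 arrays alone (0.158).

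The other 8 V1 genes did not pass. The catalytic subunit gene Atp6v1a had a mean of -0.03, with a 95% interval from -0.26 to 0.21, so a change of the size seen for its partner Atp6v1b2 lies outside that interval. Atp6v1h had a mean of 0.22, Atp6v1c2 of 0.29, Atp6v1c1 of 0.01, Atp6v1g2 of -0.09, Atp6v1e2 of -0.10, Atp6v1g1 of -0.12 and Atp6v1d of -0.16. Atp6v1c2 was uneven between mice, at -0.03, 0.85, 0.03 and 0.29 in mice 1 to 4. Atp6v1d, a subunit of the central stalk like Atp6v1f, had -0.51, 0.39, 0.22 and -0.75 in the same mice, and the largest SD of the 43 members (0.56).

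Among V0 genes, means lay between -0.18 for Atp6v0a1 and 0.12 for Atp6v0e2. The a-subunit genes, which help to place the pump in different membranes, had -0.18 (Atp6v0a1), 0.08 (Atp6v0a2) and 0.09 (Atp6v0a4). Atp6v0d1, Atp6v0e and Atp6v0b had 0.08, 0.09 and -0.06. The fourth a-subunit gene, Tcirg1, has no Atp6v symbol and so is no member. It is the form that osteoclasts use, and it rose by 0.56 ± 0.06 (adjusted p = 0.00241 by limma), with 0.60, 0.52, 0.50 and 0.63 in mice 1 to 4.

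The 24 other members held changes of both signs. Of these 7 were higher (29.2%, beside 13.5% of all genes) and 3 lower (12.5%, beside 18.4%), and their median was 0.10 on the log2 scale. The pump median was below that of the other members by 0.09, 0.02, 0.10 and 0.07 in mice 1 to 4, the same sign in each, and the difference was not tested.

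Acp5 encodes tartrate-resistant acid phosphatase, a marker of osteoclasts and of some activated macrophages. Its ratios were 1.74, 0.67, 1.70 and 1.18 on the Cy5 arrays of mice 1 to 4, and 1.78, 0.89, 1.66 and 1.54 on the Cy3 arrays. Mouse 2 was the lowest with either dye, and all 8 arrays lay above 0. The mean was 1.4 ± 0.45 (adjusted p = 0.00177 by limma). The other acid phosphatase, Acp2, had a mean of 0.06, from 2 probes at -0.03 and 0.15.

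Psap encodes the precursor of the saposins, which present lipids to their hydrolases. Its ratios were 1.74, 0.74, 1.90 and 1.20 with the transgenic RNA in Cy5, and 1.53, 0.44, 1.28 and 0.55 with it in Cy3. All 8 lay above 0, with mice 1 and 3 above mice 2 and 4 on arrays of either dye. The mean was 1.17 ± 0.52 (adjusted p = 0.00461 by limma). Npc2, a soluble carrier of cholesterol out of the lumen, had 0.66, 0.12, 0.48 and -0.03 in mice 1 to 4, and its mean of 0.31 did not pass (adjusted p = 0.0954), although its 2 probes gave 0.31 and 0.30.

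Among glycosidases, 3 of 7 measured genes rose (42.9%, beside 13.5% of all genes) and 0 fell (beside 18.4%), with means of 0.09 to 0.51 and a median of 0.22. Hexa, the alpha subunit of beta-hexosaminidase, had 0.90, 0.57, 0.87 and 0.69 on the Cy5 arrays, and 0.62, 0.20, 0.35 and -0.13 on the Cy3 arrays. Its mean was 0.51 ± 0.22 (adjusted p = 0.00902 by limma), and Cy3 arrays by themselves gave 0.26 (adjusted p = 0.201).

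Naglu, which removes N-acetylglucosamine from heparan sulfate, had the smallest SD of the 43 members. Its ratios were 0.67, 0.47, 0.21 and 0.34 with the transgenic RNA in Cy5, and 0.38, 0.45, 0.59 and 0.63 with it in Cy3. The mouse means of 0.53, 0.46, 0.40 and 0.48 gave 0.47 ± 0.05 (1.38-fold, adjusted p = 0.004 by limma).

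Glb1, the lysosomal beta-galactosidase, had 0.84, 0.22, 0.90 and 0.53 on the Cy5 arrays, and 0.69, 0.14, 0.53 and -0.22 on the Cy3 arrays. The mean was 0.45 ± 0.33 (adjusted p = 0.0317 by limma), and the call was lost without mouse 1 (adjusted p = 0.116), without mouse 3 (0.101), with Cy3 arrays only (0.215) or with values beyond 10 in size kept (0.0513). Glb1, like Gaa, Atp6v1e2 and 1 of the 3 probes of Atp6v0a2, takes its name from a stretch of the annotation in which probes of the same gene agreed less well (Spearman 0.12, against 0.224 over all pairs). The glycosidase genes Man2b1 (0.22), Neu1 (0.11), Gla (0.11) and Gaa (0.09) did not pass.

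Of 3 measured lipid hydrolases 0 rose and 1 fell (33.3%, beside 18.4% of all genes). Asah1, the acid ceramidase that splits ceramide, had -0.49, -0.56, -0.24 and -0.64 on the Cy5 arrays, and -0.63, -0.82, -0.54 and -1.13 on the Cy3 arrays. All 8 arrays lay below 0, and the mean was -0.63 ± 0.21 (adjusted p = 0.00436 by limma). So Asah1 was lower where Psap, whose saposins serve acid ceramidase among other enzymes, was higher in the same 4 mice. Smpd1, the acid sphingomyelinase gene upstream of ceramide, had a mean of 0.02, with a 95% interval from -0.16 to 0.20.

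Lipa, the acid lipase of cholesteryl esters and triglycerides, had a mean near 0 (-0.03) that hid a difference between animals. Its ratios were 0.36, -0.37, 0.46 and -0.11 on the Cy5 arrays of mice 1 to 4, and 0.24, -0.55, 0.21 and -0.45 on the Cy3 arrays. Mice 1 and 3 lay above 0 and mice 2 and 4 below it with either dye. These are means of 2 tested probes, at 0.29, -0.84, 0.30 and -0.47, and at 0.31, -0.08, 0.37 and -0.09 in mice 1 to 4. The low values of mice 2 and 4 thus came mostly from 1 probe. Another probe of Lipa lacked values for 1 mouse or more and was not tested.

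Of the sulfatases, Arsa (-0.36, adjusted p = 0.055) and Sgsh (0.08, adjusted p = 0.456) did not pass by limma. Arsa, which degrades sulfatide, had -0.10, -0.39, -0.17 and -0.77 in mice 1 to 4, and it passed under 5 of the alternatives, such as on the Cy3 arrays alone (-0.56, adjusted p = 0.0359). The protease genes Tpp1 (-0.03) and Lgmn (0.15) did not pass, and Lgmn lacked a value on the Cy3 array of mouse 4.

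Membrane proteins changed in both directions, 2 higher and 2 lower of 5 measured (40%, beside 13.5% of all genes higher, and 40%, beside 18.4% lower). Laptm5, a lysosomal membrane protein of blood cells, had 1.47, 0.76, 1.05 and 0.78 on the Cy5 arrays, and 1.24, 0.68, 1.02 and 0.70 on the Cy3 arrays. The arrays of a mouse were close, all lay above 0, and the mean was 0.96 ± 0.30 (adjusted p = 0.00222 by limma).

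Lamp2, needed for fusion of lysosomes with autophagosomes, had -0.21, -0.76, -0.14 and -0.32 on the Cy5 arrays, and -0.15, -0.49, -0.14 and -0.61 on the Cy3 arrays. All lay below 0, with a mean of -0.35 ± 0.23 (adjusted p = 0.034 by limma). The call was lost without mouse 1 (adjusted p = 0.059), mouse 2 (0.124) or mouse 4 (0.103), and on the Cy3 arrays alone (0.0764).

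Lamp1, the related coat glycoprotein, had -0.00, -0.56, -0.37 and -0.42 on the Cy5 arrays, and 0.06, -0.45, -0.62 and -0.51 on the Cy3 arrays. Mouse 1 lay at 0.03, apart from the others at -0.51 to -0.47, and Lamp1 was 1 of 3 members in which 1 mouse stood apart by Dixon's criterion, beside 5.66% of all genes. The mean was -0.36 ± 0.26 (adjusted p = 0.0402 by limma). Its 3 probes gave -0.67, -0.37 and -0.05, of which the first 2 passed in the test over 20621 probes, where 25.7% passed. The call was lost without mouse 2 (adjusted p = 0.138), mouse 3 (0.121) or mouse 4 (0.121), on the Cy3 arrays alone (0.0784), with the median over probes (0.103) or with values beyond 10 in size kept (0.0587).

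Mcoln1, the calcium channel mucolipin 1, had 0.50, 0.47, 0.60 and 0.46 with the transgenic RNA in Cy5, but 0.16, 0.18, 0.10 and -0.27 with it in Cy3. The sets of arrays did not overlap. The mean was 0.28 ± 0.12 (adjusted p = 0.0335 by limma), against 0.05 from the Cy3 arrays (adjusted p = 0.799). The call was also lost without mouse 1, 2 or 3 (adjusted p = 0.112 to 0.124), with all 8 arrays and the mouse as a random block (0.0538), and in the test over probes (0.0517). Scarb2, the receptor that carries glucocerebrosidase to lysosomes, had probes of opposite sign at -0.36 and 0.18, the first of which passed over probes (adjusted p = 0.0357). The regulator gene Tfeb had 0.15, 0.13, 0.08 and 0.02 in mice 1 to 4, a mean of 0.10 that did not pass (95% interval from -0.07 to 0.26, adjusted p = 0.326 by limma).

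**Figure D2:**
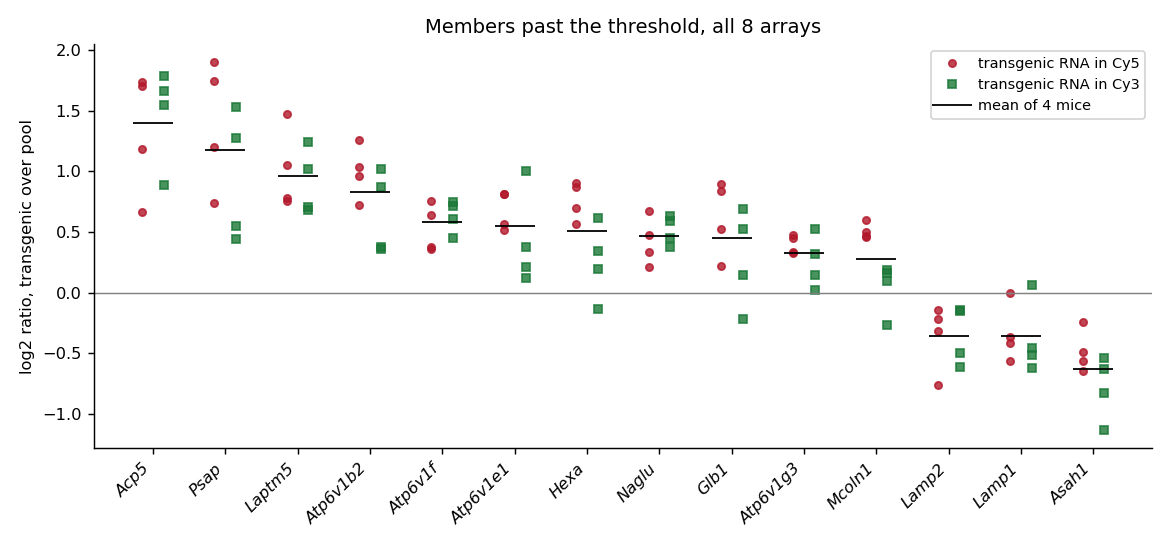
Log2 ratio of transgenic lung over the pool (vertical axis) on each of the 8 arrays for the 14 members with adjusted p under 0.05. Red circles are arrays with the transgenic RNA in Cy5, green squares those with it in Cy3, and a black line is the mean of the 4 mice. Circles lie above squares for Mcoln1, where the Cy5 arrays gave 0.46 to 0.60 and the Cy3 arrays -0.27 to 0.18.

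For the dye, the Cy3 array of each mouse was subtracted from its Cy5 array. With limma, 0 of 42 members and 0 of 8645 genes (0%) had a dye effect after adjustment, while 13 members and 2311 genes had an unadjusted p under 0.05. The median Cy5 minus Cy3 difference was 0.17 over members and 0.09 over all genes. Since each mouse was measured in both orientations, a dye effect of this kind cancels in its mean.

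Members measured by several probes show how far a single probe can be trusted. Of the 43 members, 32 rested on 1 probe and 11 on 2 or 3. In no gene were probes called in opposite directions, but only in Atp6v1e1, Npc2 and Lamp1 did all probes have the same sign. Atp6v1c1 had probes at -0.10, -0.23 and 0.36, of which the last passed over probes (adjusted p = 0.0436 by limma), and Man2b1 had -0.05, 0.24 and 0.47, of which the last passed (adjusted p = 0.012). For both, the gene mean did not pass.

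**Figure D3:**
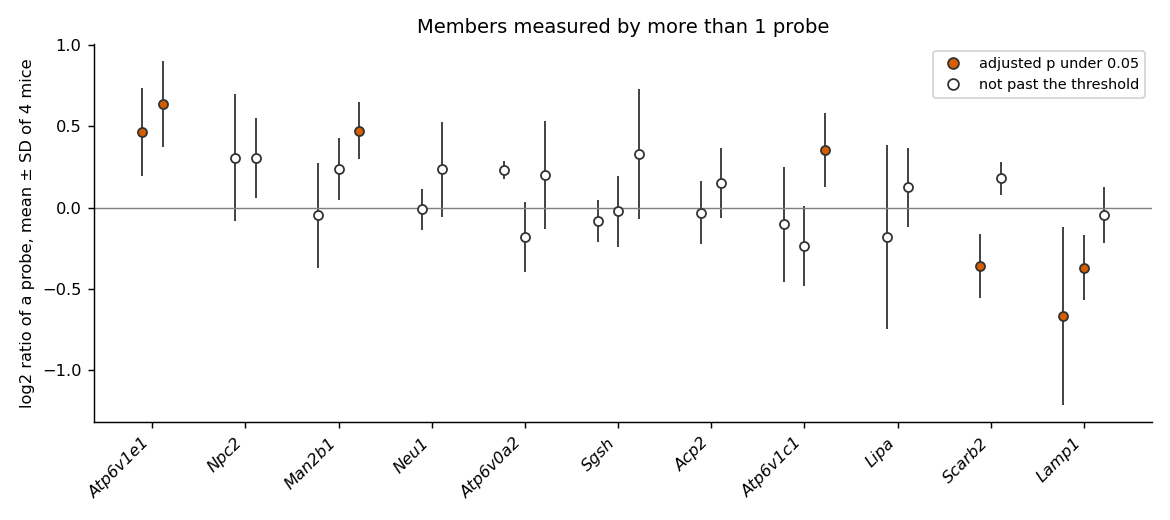
Log2 ratio of each probe (vertical axis, mean of 4 mice with SD bars) for the 11 members with more than 1 tested probe. Filled points have adjusted p under 0.05 over all probes. Probes of Atp6v1e1 and of Npc2 lie close to each other, and those of Lamp1 all lie below 0. In every other gene shown, such as Scarb2 and Atp6v1c1, the probes lie on both sides of 0.

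The 4 transgenic mice were not alike. In an F test between animals (limma, 8 arrays, dye included as a covariate), 3 of the 42 members with a value on all arrays differed between mice, namely Psap (adjusted p = 0.0394), Lipa (0.0445) and Acp5 (0.0479), beside 2.78% of all genes. The error in this F test is the technical spread between the 2 arrays of a mouse. With no dye covariate 0 of the members passed, while 104 of all genes did. Unadjusted p in the F test was under 0.05 for 9 members without the covariate and for 16 with it. The share of all genes at that unadjusted level was not counted, so these counts cannot be read as particular to the members. Mouse 3 was the highest of the 4 for 19 of the 43 members (44.2%) and mouse 1 for 16 (37.2%), beside 26.7% of all genes in either case. Mouse 2 was the highest for 5 members (11.6%, beside 25.2% of all genes) and the lowest for 13 (30.2%, beside 19.5%). Mouse 4 was the highest for 3 (6.98%, beside 21.5%) and the lowest for 20 (46.5%, beside 41.3%). The medians over the 24 non-pump members were 0.20, 0.09, 0.32 and 0.01 in mice 1 to 4, those over the pump 0.11, 0.06, 0.22 and -0.06, and those over all genes -0.01, -0.01, -0.02 and -0.06.

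Other lysosomal genes were counted from lists drawn up around the pathway, to be read beside 13.5% of all genes higher and 18.4% lower. Of 11 measured cathepsins, the main lysosomal proteases, 7 rose (63.6%) and 1 fell (9.09%), with a median of 0.55. After Ctsk and Ctss, the rises were led by Ctsd (0.86 ± 0.44, adjusted p = 0.00798) and Ctsb (0.82 ± 0.60, adjusted p = 0.0211), and Ctsf fell by 0.35 ± 0.21 (adjusted p = 0.0309 by limma). Ctsb had 1.32, 0.24, 1.35 and 0.38 in mice 1 to 4, and Ctsk, Ctsd, Ctsb and Ctsl differed between mice. Ctsl, whose mean did not pass, had 1.56, -0.59, 1.44 and -0.59 in mice 1 to 4 (adjusted p = 0.00383 between mice by limma). The count of higher cathepsins lay between 5 and 7 under the alternatives. The count of lower ones was 0 without mouse 1, without mouse 2, without mouse 4, on the Cy5 arrays alone and in the test over probes, so the call of Ctsf was lost there.

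Further hydrolases and activators were higher in 7 (31.8%) and lower in 1 (4.55%) of 22 (median 0.12), with rises in Pld3 (0.72 ± 0.25), in Prcp (0.68 ± 0.16) and in the ganglioside activator Gm2a (0.53 ± 0.20), beside Ifi30. Further membrane proteins passed in 8 of 25, 5 higher and 3 lower (32%, beside 31.9% of all genes, with a median of 0.04, and 1 lower without mouse 1), with a rise in the channel Mcoln2 (1.08 ± 0.17) beside Gpnmb, a rise in Glmp (0.61 ± 0.29) and a fall in Cd164 (-0.69 ± 0.33). Adjusted p for these 6 genes lay between 8.01e-04 and 0.00837 by limma. Partners of the pump outside the Atp6v symbols gave 1 higher (Tcirg1) and 1 lower (the assembly factor Tmem199, -0.37) of 6 (33.3% called), with 2 higher without mouse 4 and 3 higher on the Cy5 arrays alone.

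Lists of genes that regulate lysosomes or deliver to them were counted beside the 31.9% of all genes called. Regulators were higher in 2 and lower in 7 of 14 (64.3% called), with a median of -0.26. The sorting (35.3%), autophagy (35.7%) and late endosome (27.3%) lists lay near the share over all genes. Tfe3, a relative of Tfeb, rose (0.56 ± 0.17) and so did Lamtor2 (0.43), while Lamtor3 (-0.52 ± 0.27), the repressor of autophagy genes Zkscan3 (-0.45 ± 0.10) and the kinase gene Mtor (-0.34 ± 0.08) fell. The number of lower regulators was 3 without mouse 2. Of 28 autophagy genes 2 rose and 8 fell (median -0.06), with falls in Gabarapl1 (-0.70 ± 0.26), Becn1 (-0.56 ± 0.14) and Ulk2 (-0.56 ± 0.27), with a rise in Atg101 (0.56 ± 0.02). With a mouse left out 1 was higher in each case, and without mouse 1 only 5 were lower. Of 17 sorting genes 3 rose and 3 fell (median -0.16): the adaptor genes Ap1b1 (0.59 ± 0.10) and Ap1s1 (0.57 ± 0.11) rose, and the mannose 6-phosphate receptor gene M6pr (-0.41 ± 0.14) and Vps26a (-0.41 ± 0.11) fell. With all 8 arrays and the mouse as a random block, 3 sorting genes were higher and 7 lower. Of 22 late endosome and fusion genes 2 rose and 4 fell (median -0.03), led by Vps4b (-0.47 ± 0.18), and the counts were 1 and 2 without mouse 1, 2 and 2 without mouse 2, 1 and 4 without mouse 3 and 3 and 3 without mouse 4. They were 5 and 4 with quantile normalization, 5 and 3 on the Cy5 arrays and 0 and 2 on the Cy3 arrays, so which direction held more genes depended on the scaling and the dye. The named genes of these lists passed by limma at adjusted p = 0.00225 to 0.0132.

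**Figure D4:**
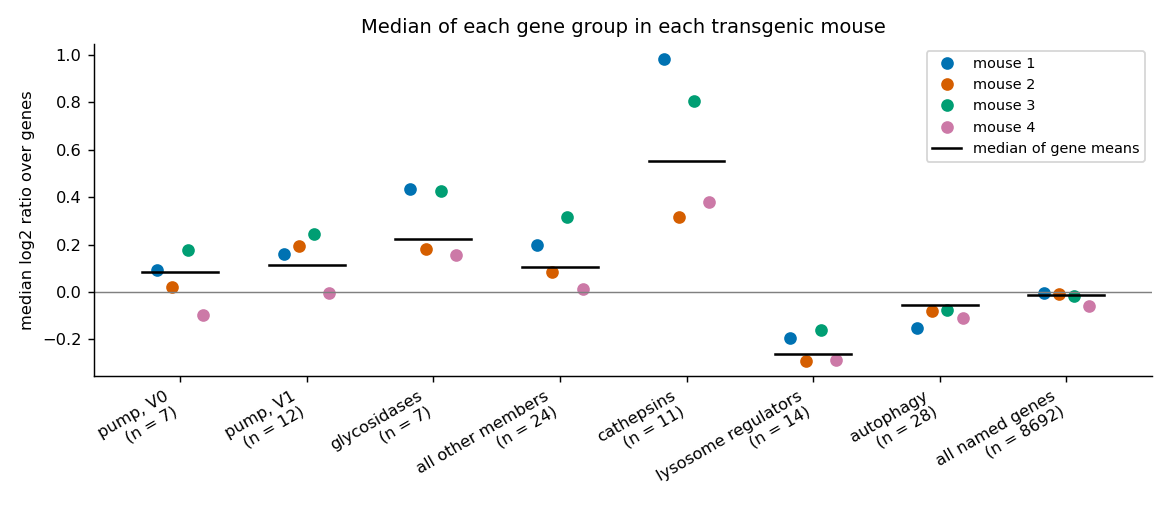
Median log2 ratio of transgenic lung over the pool (vertical axis) for gene groups (n = measured genes), with 1 point per transgenic mouse and a black line at the median of the gene means. The cathepsin medians are above 0.3 in every mouse, those of the regulators lie below 0, and the pump and glycosidases lie between them in each mouse.

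Markers of cell types were counted in the same arrays, to be read beside 13.5% of all genes higher and 18.4% lower. The shortest lists hold 2 to 4 measured genes, too few to set against those shares. Of 13 macrophage markers listed 7 were measured, 4 higher and 1 lower, with list medians of 0.74, 0.61, 0.46 and 0.66 in mice 1 to 4. The higher ones were Mrc1 (1.24 ± 0.27) and the genes C1qa, C1qb (0.64 ± 0.13) and C1qc, which encode chains of the same complement protein. Lyz2 (-0.17) and Fcgr1 (0.24) did not pass, and the scavenger receptor gene Marco was lower (-2.54 ± 0.28). Of 10 osteoclast markers 7 were measured, Acp5 itself among them, 3 higher and 1 lower, with medians of 0.64, 0.15, 0.47 and 0.20. Tnfrsf11a, the receptor for the osteoclast factor RANKL, rose by 0.35 ± 0.25 (adjusted p = 0.0417 by limma), with -0.28 on the Cy3 array of mouse 4. The lower marker was Mmp9 (-0.37 ± 0.08, adjusted p = 0.00969 by limma), below 0 on all 8 arrays. Calcr (0.17) and Nfatc1 (-0.13) did not pass. The count of higher osteoclast markers lay between 2 and 4 under the alternatives. It was 2 without mouse 1, without mouse 3, on the Cy3 arrays alone and with values beyond 10 in size kept. The count of lower ones was 0 in the test over probes. Neutrophil markers were higher in 3 and lower in 2 of 7, and without mouse 4 lower in 0. Type 2 alveolar markers were higher in 1 (Sftpb, 0.37) and lower in 0 of 4, and higher in 0 without mouse 1 or without mouse 2. Type 1 alveolar markers were lower in 3 of 4, club cell markers in 1 of 2, and of 3 endothelium markers 0 passed by limma, with 0 at an unadjusted p under 0.05. Of 5 listed markers of intercalated or ionocyte-like airway cells 3 were measured, without the pump genes Atp6v0d2 and Atp6v1b1. Cftr (0.58 ± 0.04, adjusted p = 0.00207 by limma) and Slc26a4 rose, and Foxi1 (-0.17, below 0 on all 8 arrays) did not pass. The part of these cell types in the lysosomal values was not tested.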

How the data were processed

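Lung RNA of 4 transgenic mice was measured on 8 arrays of 2 colours against 1 wild-type pool. The authors deposited a log2 ratio for each probe on each array. How they corrected background, normalized and formed it is not given in the sources used here. Per the labels, each mouse had its RNA in Cy5 on 1 array and in Cy3 on the other. No intensities were used, so signal over background is unknown. The number of mice limits the precision.

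Values beyond 10 in size, 498 placeholders, were set to missing, and 706 were missing as deposited. A probe was tested if each mouse had a value, which left 20621 of 20794 and excluded 173. Names pair annotation number plus 11 with the row of the value table, up to annotation number 20237. At that offset probes of the same gene correlated at 0.224 (Spearman), against at most 0.054 at other offsets within 60. This named 12296 probes of 8741 genes. The other 8498 probes are unnamed here. All symbols were updated through gene identifiers with RefSeq of GRCm38.p6.

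Mouse means, averaged over the probes of a gene, entered a two-sided moderated test of a mean of 0 (limma 3.58.1, R 4.3.3), adjusted by Benjamini-Hochberg over 8692 genes. The residual degrees of freedom were 3, and eBayes added 4.27. An exact sign-flip test of 4 mice cannot go below p = 0.125. The test was tried on simulated data of 8692 genes, 200 of them changed. For changes of -2, -1, 1 and 2 on the log2 scale, 50, 47, 46 and 49 of 50 genes each were called rightly. Beside these, 19 calls were false. Offsets, motifs and plots used Python 3.11.15, pandas 2.3.3, scipy 1.17.1 and matplotlib 3.10.9.

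The members and lists were chosen with earlier results of these data known. All measured members are named. Values of every array or mouse are given for members past the threshold, for those that differ between mice and for Lamp1, Lamp2, Acp5 and Tfeb, and up to 4 genes past the threshold are named in each further list. Mtor, Ctsf, Ctsl, C1qb, Lyz2, Fcgr1, and members shown by mouse without passing, apart from Lipa and Tfeb, lie outside this rule and were picked with values in view. Alternatives were leaving out a mouse, arrays of 1 dye, centring, quantile normalization, the mouse as a random block, other handling of probes and missing values, a robust prior, and leaving out weakly supported names.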

Additional observations from a re-analysis of the deposited data

Results flagged for a closer look

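In 3 of the 43 members, 1 mouse lay far from the other 3 by Dixon's criterion. Chance flags about 1 in 20 groups, and 5.66% of all genes were flagged in the same way. Lamp1 was 0.03 in mouse 1, against -0.51 to -0.47 in the others, and its mean was -0.49 without that mouse (adjusted p = 0.0191 by limma). Mcoln1 was 0.1 in mouse 4, against 0.33 to 0.35 in the others, with a mean of 0.34 without it (adjusted p = 0.0249 by limma). Atp6v0a2 was 0.36 in mouse 3, against -0.03 to 0.02 in the others, and its mean without that mouse was -0.01 (adjusted p = 0.968 by limma).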

How the results depend on the processing

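Of the 14 members past the threshold, 7 passed in the same direction under all 17 alternatives: Acp5, Psap, Laptm5, Atp6v1b2, Atp6v1f, Naglu and Asah1. Over all members and alternatives 689 values kept their status, which for most was not passing in either case. A call was lost in 25 values and gained in 12, and no called value changed sign. Leaving out a mouse in turn gave 3 to 4 higher and 0 lower pump members, 5 to 7 higher and 1 to 2 lower other members, and medians of 0.01 to 0.15 for the pump and 0.06 to 0.13 for the others. The lower count fell to 1 without mouse 2 and without mouse 4. On the Cy3 arrays alone 2 pump members and 4 others were higher, and on the Cy5 arrays alone 6 and 8. Between mice, 0 members differed with no dye covariate, against 3 with it. Over all genes, 1555 to 2107 passed with a mouse left out and 1921 on the Cy3 arrays alone, against 2772 in all. Leaving out the Cy3 array of mouse 4, chosen after seeing the data, gave 5 higher and 0 lower pump members and 8 higher and 4 lower others. Causes of these changes were not tested, and settings that leave out a mouse or a dye also rest on fewer arrays. No paired analysis was possible because there is 1 group of mice and 1 pool. Intensities were not used, so what signal over background limits is unknown.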
